A study of Rattus norvegicus with 22 samples.

Results

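The activin subunit genes Inhba, Inhbb, Inhbc and Inhbe, the activin antagonist Fst and the feedback genes Pmepa1 and Smad7 were followed through the liver RNA of 22 rats. These 7 genes were taken by symbol from a table of 14971 genes. They were chosen by measured values: Inhba was far lower after ozone, and Pmepa1 was lower in vagotomised than in sham rats under ozone. Those values are therefore given as a description, with no test. For the other members the same comparisons were known when the set was drawn up, and their calls are not independent support for it. Of the 7 members, 5 had a mean normalised read count of at least 10 and entered the fit across 12424 genes. Inhbb and Fst fell below that minimum and are described by their reads.

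Rats had sham surgery or a hepatic vagotomy, in which the branch of the vagus nerve that runs to the liver is severed, at 12 weeks of age. After 5 to 6 days of recovery they breathed either air or 1 ppm ozone for 4 hours daily, over 1 or 2 days, and livers were taken no more than 2 hours later. Such a bulk liver sample mixes all cell types of the organ. The groups were 5 sham rats in air, 6 vagotomised rats in air, 6 sham rats in ozone and 5 vagotomised rats in ozone, and all of them had surgery and recovery. The labels used here give no strain, no sex and no number of exposure days for a given rat.

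Activins are dimers of inhibin beta subunits and belong to the TGF-beta family of secreted factors. They bind type II receptors, which recruit type I receptors that phosphorylate SMAD2 and SMAD3, and these enter the nucleus with SMAD4. Follistatin, the product of Fst, binds activin outside the cell, while SMAD7 and PMEPA1, both induced by the pathway, dampen it inside the cell. The liver is the main site of expression of Inhbc and Inhbe, and activin A, the dimer of the Inhba product, is known to restrain hepatocyte growth.

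The depth recovered from the table lay between 14098863 and 21141337 gene reads per library. All 7 hepatocyte markers (Alb, Apoa1, Ttr, Tf, Serpina1, Apoc3 and Fgb) passed the minimum count. A small ribosomal RNA, listed as 5_8S_rRNA, was below a set limit of 200 in 4 libraries (vagotomised air 1 and 5, vagotomised ozone 1 and sham ozone 3). Its normalised counts were 38.1 to 180 there, against 342 to 3775 in the other 18. The 4 are called the libraries low in ribosomal RNA, and several results are also given without them. Changes are log2 fold changes of normalised count + 1, with the standard error (SE) from limma, and the words rose and fell are kept for genes with a Benjamini-Hochberg adjusted p under 0.05.

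Sequences around an annotated start are shown for 4 members, 250 bases before to 50 after it, from RefSeq on build GRCr8. Inhba and Pmepa1 are shown because they have the largest changes among the members fitted, and Inhbc and Inhbe because they are next to each other in the annotation and have their values side by side here. The Inhba window is chr17:53804459-53804758, that of Pmepa1 chr3:182478600-182478899, that of Inhbc chr7:65082870-65083169 and that of Inhbe chr7:65064470-65064769, all on the minus strand. Capitals mark matches to the SMAD binding element CAGAC or to the cAMP response element TGACGTCA, on either strand.
Inhba: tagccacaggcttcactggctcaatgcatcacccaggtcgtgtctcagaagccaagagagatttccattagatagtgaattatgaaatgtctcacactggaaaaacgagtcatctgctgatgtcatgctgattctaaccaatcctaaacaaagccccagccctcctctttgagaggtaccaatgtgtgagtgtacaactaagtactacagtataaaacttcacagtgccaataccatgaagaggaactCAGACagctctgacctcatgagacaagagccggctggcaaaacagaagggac
Pmepa1: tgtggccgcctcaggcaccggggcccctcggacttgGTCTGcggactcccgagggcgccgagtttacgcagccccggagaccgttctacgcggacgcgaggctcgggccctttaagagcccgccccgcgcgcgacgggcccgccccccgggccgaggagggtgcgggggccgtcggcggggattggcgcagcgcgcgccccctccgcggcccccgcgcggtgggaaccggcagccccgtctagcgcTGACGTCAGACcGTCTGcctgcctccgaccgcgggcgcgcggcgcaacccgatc
Inhbc: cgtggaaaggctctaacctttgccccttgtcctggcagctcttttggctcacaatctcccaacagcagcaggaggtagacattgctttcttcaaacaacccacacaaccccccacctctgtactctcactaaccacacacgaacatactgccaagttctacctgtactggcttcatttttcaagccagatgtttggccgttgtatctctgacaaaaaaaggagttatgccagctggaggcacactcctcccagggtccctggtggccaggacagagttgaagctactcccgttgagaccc
Inhbe: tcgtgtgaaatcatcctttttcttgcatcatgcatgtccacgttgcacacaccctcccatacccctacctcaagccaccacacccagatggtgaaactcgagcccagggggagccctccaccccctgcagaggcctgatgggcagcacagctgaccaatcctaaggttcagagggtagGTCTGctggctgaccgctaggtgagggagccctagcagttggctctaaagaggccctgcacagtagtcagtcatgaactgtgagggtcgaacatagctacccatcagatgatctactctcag
The Inhba window lies inside the annotated span of the gene, so it belongs to 1 of its starts. CAGAC was found 3 times in the Pmepa1 window, once each in those of Inhba and Inhbe, and not in that of Inhbc. Of 33469 windows of 300 bases, 50.06% hold this motif. TGACGTCA was found in the Pmepa1 window, where it spans the start and overlaps a CAGAC, and 1.83% of all windows hold it. The AP-1 motif TGANTCA, present in 7.33% of windows, was found in none of the 4. The rat libraries come from alignments to build rn6, and these matches describe the letters of the reference, not binding.

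Inhba, the subunit of activin A, was the member with the steepest difference between exposures. In sham air its normalised counts were 178, 292, 380, 304 and 258 in libraries 1 to 5, and in sham ozone they ranged from 18.4 to 61.7 with a median of 37.0. In vagotomised air they ranged from 127 to 378 with a median of 249, and in vagotomised ozone they were 66.8, 49.0, 47.1, 43.6 and 104. Every ozone library was below every air library, as for 1.74% of genes tested (7.21% within sham and 5.21% within vagotomised rats).

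The means were 283 ± 73.4 (SD, n = 5) in sham air and 36.9 ± 14.7 (SD, n = 6) in sham ozone, a log2 change of -2.95 ± 0.28 or 7.74-fold lower. After vagotomy they were 251 ± 81.3 (SD, n = 6) in air and 62.0 ± 24.9 (SD, n = 5) in ozone, a log2 change of -2.01 ± 0.28 or 4.01-fold lower. Vagotomised ozone library 5, at 104, stood highest of the 11 ozone libraries, and vagotomised air library 5, at 127 and low in ribosomal RNA, lowest of the 11 air libraries. Leaving out the 4 libraries low in ribosomal RNA, the log2 changes were -2.78 in sham and -2.23 in vagotomised rats.

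Between surgeries Inhba did not pass the test in air, on libraries that also entered the ozone changes that chose it. In air the log2 change with vagotomy was -0.20 ± 0.28 (limma adjusted p = 1, 95% interval -0.78 to 0.38). In ozone Inhba was 1.68-fold higher after vagotomy, a log2 change of 0.75 ± 0.28, and the groups overlapped. This comparison rests on ozone libraries whose values chose the gene and is given with no test. The difference between the ozone changes of vagotomised and sham rats was 0.95 ± 0.40, and 0.55 without the 4 libraries low in ribosomal RNA. It is built from the changes that chose the gene and is given with no test.

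In whole liver, fewer cells of a type and less RNA per cell cannot be told apart. Stellate cell markers, 10 of 10 of them tested, summed to 2243 to 3584 in sham air, 2199 to 2952 in vagotomised air, 1949 to 2832 in sham ozone and 1650 to 3314 in vagotomised ozone. Of these markers 1 fell in sham rats and 0 in vagotomised rats after ozone, where 13.8% and 9.63% of all genes fell. The sums of Kupffer cell markers were 5776 to 7500, 5204 to 9159, 5307 to 7152 and 5080 to 10623 in the same order, with 2 of 8 markers fallen in sham rats (1 of 8 with edgeR and with DESeq2) and 0 in vagotomised rats. Endothelial markers summed to 4838 to 5620, 3895 to 5873, 3866 to 6057 and 4356 to 5092, with 1 of 7 fallen in sham rats and 1 risen in vagotomised rats, where 11.4% of all genes rose. Mesothelial markers, from the liver surface, summed to 147 to 369, 101 to 396, 98.9 to 300.2 and 98.9 to 334, with 1 of 5 fallen in sham rats and a median log2 change of their members of -0.69 in sham and -0.39 in vagotomised rats. All 4 sums overlapped between air and ozone, and the part of these cells in the level of Inhba was not tested.

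**Figure D1:**
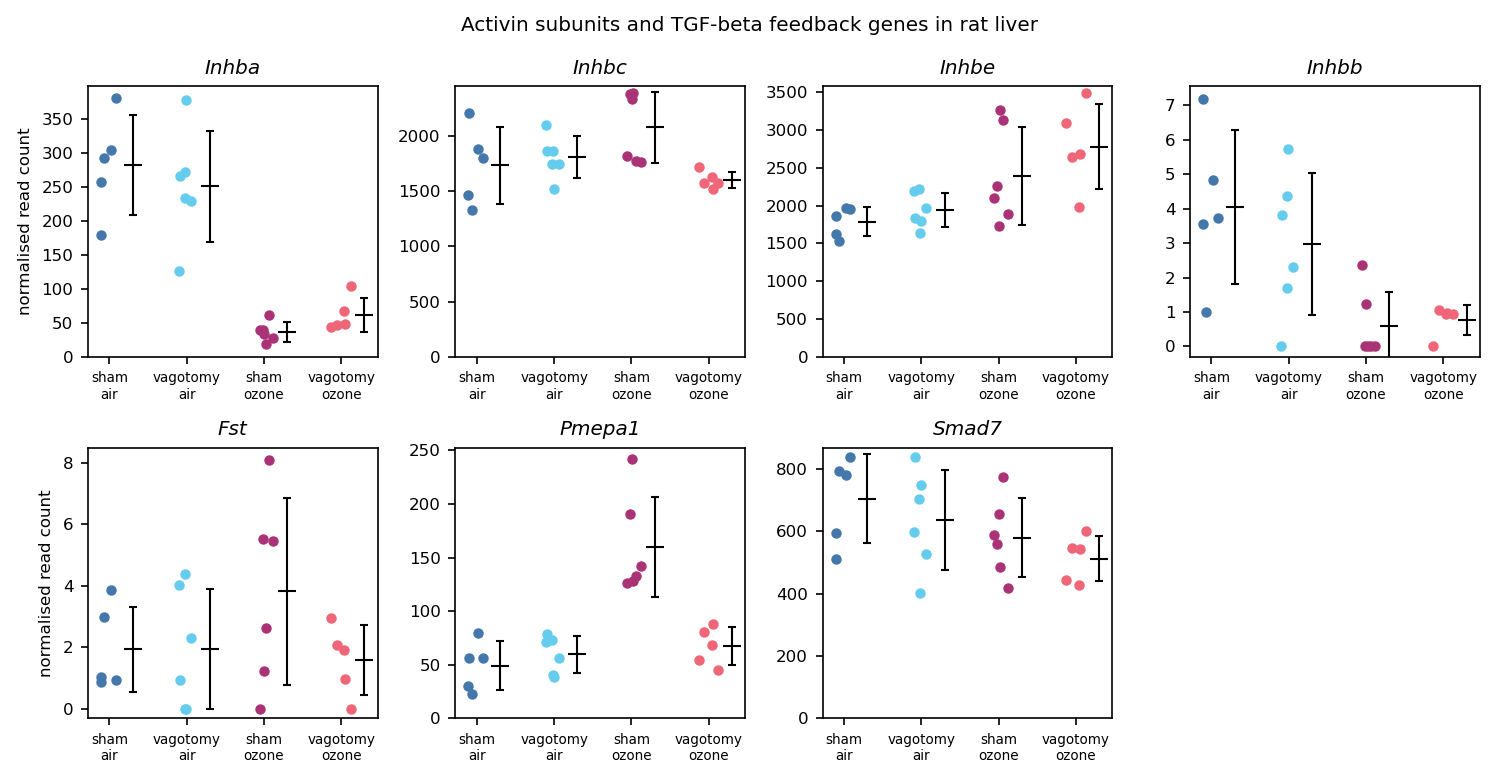
Normalised read count of each of the 7 members (vertical axis, linear, scaled per gene) in the 4 groups, with 1 point per library and the mean ± SD beside it. Inhba lies at 127 or more in every air library and at 104 or less in every ozone library, Pmepa1 lies at 126 or more in sham ozone and at 88.3 or less elsewhere, and Inhbb and Fst stay at a few counts.

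Inhbb, the subunit of activin B, was near the limit of detection. It had 1 to 7 reads per library in sham air, 0 to 5 in vagotomised air, 0 to 2 in sham ozone and 0 to 1 in vagotomised ozone, summing to 21, 18, 3 and 4 reads. No read was found in 4 of 6 sham ozone libraries, against 0 of 5 sham air libraries. Mean normalised counts were 4.06 ± 2.24 (SD, n = 5) in sham air and 0.597 ± 0.992 (SD, n = 6) in sham ozone, with p = 0.013 (exact permutation test, two-sided, and 0.104 adjusted over the 8 such tests on Inhbb and Fst). In vagotomised rats the means were 2.99 ± 2.06 in air and 0.779 ± 0.438 in ozone (p = 0.0519, exact permutation test, two-sided, adjusted 0.208). In a limma fit without a minimum count Inhbb fell in sham rats, at -1.72 ± 0.48 (adjusted p = 0.0112), and was at -0.98 ± 0.48 in vagotomised rats (adjusted p = 0.18).

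Inhbc, the subunit of activin C, was highly expressed in all groups, with a mean above that of 92.5% of the genes listed. Sham air libraries 1 to 5 had normalised counts of 1466, 1326, 1797, 1880 and 2206, and vagotomised air libraries ranged from 1524 to 2103 with a median of 1805. Sham ozone libraries ranged from 1765 to 2391 with a median of 2080. Vagotomised ozone libraries 1 to 5 had 1627, 1522, 1569, 1718 and 1578, so that each lay below every sham ozone library.

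The mean in vagotomised ozone was 1603 ± 74.5 (SD, n = 5) against 2078 ± 320 (SD, n = 6) in sham ozone. This log2 change of -0.36 ± 0.12 (95% interval -0.61 to -0.11) did not pass across all genes (unadjusted p = 0.00631, limma adjusted p = 0.138). In that comparison 0.942% of genes tested lay lower in every vagotomised library, as Inhbc did. Ozone against air gave 0.27 ± 0.12 in sham rats (limma adjusted p = 0.0984) and -0.17 ± 0.12 in vagotomised rats (limma adjusted p = 0.364), the latter -0.10 without the libraries low in ribosomal RNA (limma adjusted p = 0.637). Without sham air library 5, the highest of its group, the sham value was 0.36 and passed (limma adjusted p = 0.0292). The difference between these ozone changes was -0.44 ± 0.17 (95% interval -0.79 to -0.09, limma adjusted p = 0.45).

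Inhbe, the subunit of activin E and the neighbour of Inhbc, had a higher mean in ozone than in air under both surgeries. Sham air libraries 1 to 5 had normalised counts of 1629, 1536, 1953, 1964 and 1860, and sham ozone libraries ranged from 1730 to 3263 with a median of 2180. Vagotomised air libraries ranged from 1642 to 2222 with a median of 1899, and vagotomised ozone libraries 1 to 5 had 1980, 2690, 2642, 3099 and 3486. The air and ozone groups overlapped under both surgeries, and the spread was wider in ozone.

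In vagotomised rats Inhbe rose from 1942 ± 229 (SD, n = 6) to 2779 ± 563 (SD, n = 5), a log2 change of 0.50 ± 0.16 (limma adjusted p = 0.0241). This call was lost without vagotomised air library 1 (adjusted p = 0.0552), vagotomised ozone library 4 (0.0619) or 5 (0.0797), or with columns rescaled to equal totals (0.0547). In sham rats the change of 0.39 ± 0.16, from 1788 ± 195 (SD, n = 5) to 2396 ± 648 (SD, n = 6), did not pass (limma adjusted p = 0.0667). It did pass without sham ozone library 1 (adjusted p = 0.027) or 5 (0.0437), without vagotomised ozone library 1 (0.046), and with DESeq2 on the recovered reads (0.0365). The changes differed between surgeries by 0.11 ± 0.22 (95% interval -0.34 to 0.57, limma adjusted p = 0.921), and vagotomy against sham gave 0.12 ± 0.16 in air and 0.23 ± 0.16 in ozone (limma adjusted p = 1 and 0.529). Without the 4 libraries low in ribosomal RNA the difference between surgeries was 0.31 (limma adjusted p = 0.524) and vagotomy against sham in ozone 0.44 (limma adjusted p = 0.0839).

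Fst, which encodes follistatin, had 0 to 8 reads per library, summing to 10 reads in sham air, 12 in vagotomised air, 22 in sham ozone and 8 in vagotomised ozone. Mean normalised counts were 1.94 ± 1.39 (SD, n = 5) in sham air and 3.82 ± 3.05 (SD, n = 6) in sham ozone (p = 0.229, exact permutation test, two-sided, adjusted 0.459), and 1.94 ± 1.94 (SD, n = 6) and 1.59 ± 1.14 (SD, n = 5) after vagotomy (p = 0.701, exact permutation test, two-sided, adjusted 0.896). No difference in Fst passed at these few reads, and the size of difference that could be seen was not tested.

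Pmepa1, a membrane protein gene induced by TGF-beta that keeps SMAD2 and SMAD3 from their receptor, stood apart in 1 group. Sham air libraries 1 to 5 had normalised counts of 30.3, 22.8, 56.7, 80.1 and 56.4, and sham ozone libraries ranged from 126 to 242 with a median of 138. Vagotomised air libraries ranged from 38.9 to 79.0 with a median of 64.0, and vagotomised ozone libraries 1 to 5 had 68.7, 88.3, 80.7, 54.5 and 44.8. Every sham ozone library was above each of the other 16 libraries, as for 0.241% of genes tested. Against the sham air libraries alone 8.15% of genes were higher without overlap, and 0.942% were lower without overlap in vagotomised than in sham ozone. By contrast 3 of 5 vagotomised ozone libraries lay within the range of the air libraries and 2 above the highest of them.

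In sham rats the mean was 49.3 ± 23.001 (SD, n = 5) in air and 160 ± 46.7 (SD, n = 6) in ozone, a log2 change of 1.77 ± 0.28 or 3.42-fold higher. In vagotomised rats it was 60.0 ± 17.3 (SD, n = 6) and 67.4 ± 17.99 (SD, n = 5), a log2 change of 0.17 ± 0.28. Under ozone Pmepa1 was 2.36-fold lower after vagotomy (log2 change -1.24 ± 0.28), and the difference between the ozone changes was -1.60 ± 0.39. These values chose the gene or share libraries with those that did. In air, which the choice did not use, vagotomy against sham gave 0.36 ± 0.28 (95% interval -0.21 to 0.94, limma adjusted p = 1). Without the libraries low in ribosomal RNA the ozone changes were 1.83 in sham and 0.11 in vagotomised rats.

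Smad7, the inhibitory SMAD that blocks the activated receptor, passed the test in none of the 5 comparisons. Sham air libraries 1 to 5 had normalised counts of 595, 794, 838, 781 and 512, and vagotomised ozone libraries 427, 544, 545, 445 and 600. Vagotomised air libraries ranged from 401 to 838 with a median of 650 and sham ozone libraries from 417 to 773 with a median of 572. All 4 groups overlapped. Ozone against air gave -0.28 ± 0.18 in sham rats (95% interval -0.65 to 0.09, limma adjusted p = 0.251) and -0.28 ± 0.18 in vagotomised rats (95% interval -0.65 to 0.09, limma adjusted p = 0.293). Vagotomy against sham gave -0.16 ± 0.18 in air and in ozone (limma adjusted p = 1 and 0.743). Pmepa1 and Smad7, both feedback genes of the pathway, thus had ozone changes of 1.77 and -0.28 in the same sham rats.

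**Figure D2:**
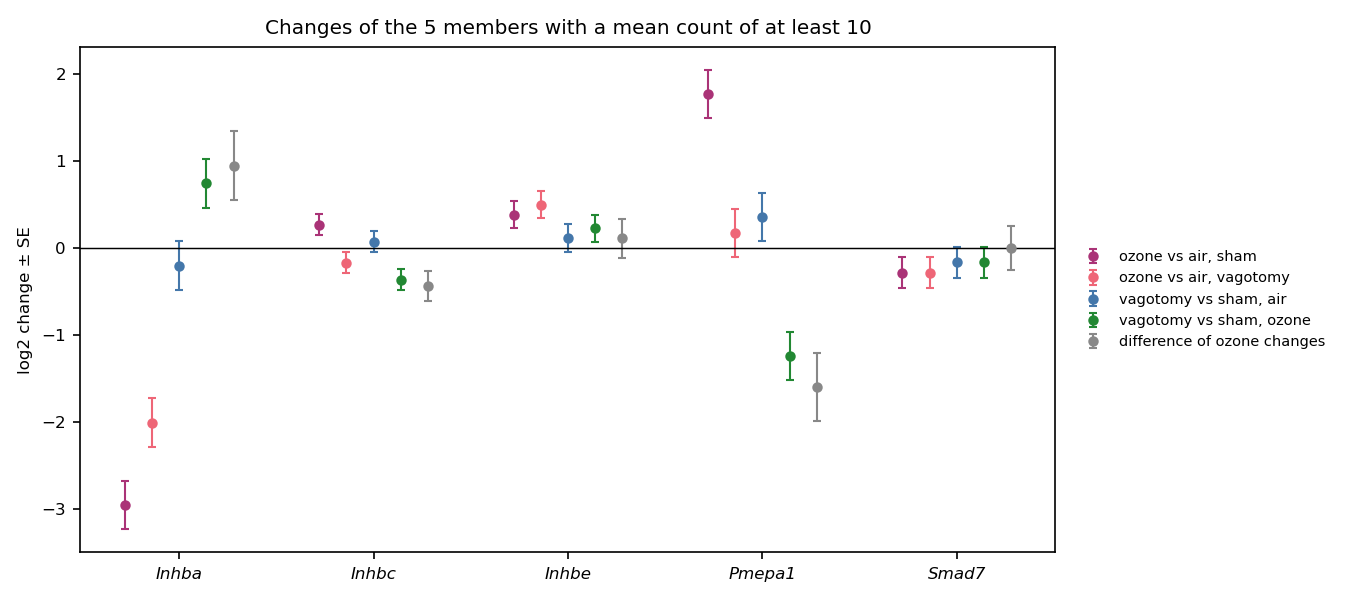
Log2 change ± SE (vertical axis) of the 5 members fitted, for ozone against air in sham and in vagotomised rats, vagotomy against sham in air and in ozone, and the difference between the ozone changes. Inhba has the lowest values, -2.95 and -2.01, and Pmepa1 has 1.77 in sham against 0.17 in vagotomised rats, while the values of Smad7 lie between -0.28 and 0.00.

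The members' calls were set against those of all genes. Inhbc, Inhbe and Smad7 are the 3 members whose own ozone changes did not choose the set. In sham rats 0 of them passed with limma or edgeR and 1, Inhbe, with DESeq2, where 28.4% of all genes passed, and 2 of 3 had an unadjusted limma p under 0.05, against 39.0% of genes. In vagotomised rats 1 of 3 rose, against 21.1% of genes called and 11.4% risen. For vagotomy against sham in ozone 0 of 3 members (Inhba and Pmepa1 left out) passed with limma, edgeR or DESeq2, against 1.34% of genes with limma. Of them 1, Inhbc, had an unadjusted limma p under 0.05, against 1862 genes (14.99%). In air 0 of 5 members and 0.0% of genes passed with any of the 3 tools, and 0 of 5 members had an unadjusted limma p under 0.05, against 387 genes (3.11%). These 5 include Inhba, whose air libraries also entered the ozone changes that chose it. The difference between the ozone changes passed for 0 of 3 members (Inhba and Pmepa1 left out) with any of the 3 tools, and for 0.0% of genes with limma, 0 with edgeR and 16 with DESeq2. At an unadjusted limma p under 0.05 there were 1 of 3 members, Inhbc, and 1147 genes (9.23%). The comparisons share groups, so their values are not independent of each other.

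Around the members, 95 symbols of the activin, TGF-beta and BMP pathway were listed by role, and 79 of them were tested. In sham rats 7 rose and 10 fell after ozone, 21.5% of those tested against 28.4% of all genes (14.6% risen and 13.8% fallen), with a median change of -0.06 against 0.01 over all genes. In vagotomised rats 3 rose and 4 fell, 8.86% against 21.1% (11.4% risen and 9.63% fallen), with a median of -0.08 against -0.01. For vagotomy against sham in ozone 2 were higher and 1 lower, 3.80% against 1.34% (0.805% higher and 0.531% lower). In air 0 passed with limma, edgeR or DESeq2, and 3 of 79 had an unadjusted limma p under 0.05. The difference between the ozone changes of vagotomised and sham rats passed for 0 of the 79 with limma, edgeR or DESeq2. At an unadjusted limma p under 0.05 there were 9 of 79, against 9.23% of all genes. A gene that passed under 1 surgery only is thus not shown to differ between surgeries.

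After ozone 13.8% of all genes fell in sham and 9.63% in vagotomised rats, and 39.0% and 32.36% had an unadjusted limma p under 0.05. Of the receptors, 1 of 10 fell and 0 rose under each surgery, and 3 of 10 had an unadjusted limma p under 0.05 in each. It was Tgfbr2, the type II receptor for TGF-beta, at -0.64 ± 0.11 in sham rats (1254 ± 144 in air, 809 ± 137 in ozone, limma adjusted p = 7.89e-05) and -0.80 ± 0.11 in vagotomised rats (1203 ± 59.7 and 692 ± 57.5, limma adjusted p = 1.05e-05). In both cases every ozone library was below every air library, as for 7.21% of genes tested in sham and 5.21% in vagotomised rats. The activin receptors Acvr1b, Acvr1c, Acvr2a and Acvr2b did not pass under either surgery, with changes of 0.28, -0.27, -0.07 and -0.07 in sham rats and 0.27, -0.54, 0.24 and 0.02 in vagotomised rats. Of the 4 other ligands tested (Tgfb1, Tgfb2, Tgfb3 and Gdf11) 0 passed under either surgery with limma, edgeR or DESeq2, and 0 had an unadjusted limma p under 0.05, with Tgfb1 at -0.34 ± 0.18 in sham and -0.27 ± 0.18 in vagotomised rats.

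Among extracellular binders and latency proteins 1 of 10 rose and 2 fell in sham rats, and 0 passed in vagotomised rats with limma, edgeR or DESeq2 (2 at an unadjusted limma p under 0.05). With limma 14.6% of all genes rose and 13.8% fell in sham rats, and 21.1% passed in vagotomised rats. Dcn, the matrix proteoglycan decorin that binds TGF-beta, rose by 1.27 ± 0.35 in sham rats (limma adjusted p = 0.00897). In vagotomised rats it was at 0.95 ± 0.35, which did not pass (limma adjusted p = 0.0581). Nrros, which holds latent TGF-beta on myeloid cells, changed by -0.76 ± 0.15 in sham rats (limma adjusted p = 0.000537). In these rats 2 of 8 Kupffer cell markers (1 of 8 with edgeR and with DESeq2) and 13.8% of all genes fell, and the part of these markers in Nrros was not tested. Under ozone Nrros was higher by 0.59 ± 0.15 in vagotomised than in sham rats (limma adjusted p = 0.0481), a call lost with 19 of the 22 libraries left out in turn, with no minimum count (0.0546), with the number after S in the library names as a covariate (0.0528) and with only the groups compared in the fit (0.197). Fstl1, a follistatin-like protein, changed with ozone by -0.58 ± 0.17 in sham rats (limma adjusted p = 0.0144), a call lost without sham air library 4 (0.0531) or 5 (0.0521).

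Of 7 SMADs and nuclear partners 1 fell under each surgery, where 13.8% of all genes fell in sham and 9.63% in vagotomised rats. Smad3, a transducer of activin signals, changed by -0.57 ± 0.14 in sham rats (limma adjusted p = 0.00288) and was at -0.26 ± 0.14 in vagotomised rats, which did not pass (limma adjusted p = 0.186). Smad2, its partner, was at 0.00 ± 0.13 in sham rats (limma adjusted p = 0.989) and changed by -0.36 ± 0.13 in vagotomised rats (limma adjusted p = 0.0415). The call of Smad2 was lost with 8 of the 22 libraries left out in turn, 5 of them vagotomised air and 3 vagotomised ozone libraries, with no minimum count (0.0529), with equal column totals (0.0545), and without the 4 libraries low in ribosomal RNA (limma adjusted p = 0.156).

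Of 11 other inhibitors of SMAD signalling 2 rose and 1 fell in sham rats, and 1 rose in vagotomised rats. Over all genes 14.6% rose and 13.8% fell in sham rats, and 11.4% rose in vagotomised rats. Skil, a corepressor of SMAD complexes that TGF-beta induces, rose by 0.93 ± 0.21 in sham rats (142 ± 38.2 in air, 266 ± 42.1 in ozone, limma adjusted p = 0.00193). In vagotomised rats Skil was at 0.41 ± 0.21, which did not pass (limma adjusted p = 0.186). Bambi, a decoy receptor, rose by 0.60 ± 0.18 in sham rats (limma adjusted p = 0.0135) and by 0.57 ± 0.18 in vagotomised rats (limma adjusted p = 0.0241), where the call was lost without vagotomised air library 1 (0.0607) or 3 (0.0579) or vagotomised ozone library 3 (0.056), 4 (0.0598) or 5 (0.0858), or with only the groups compared in the fit (0.0594).

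Ldlrad4, a relative of Pmepa1 whose product also binds SMADs, had changes of opposite sign with ozone in sham rats and with vagotomy under ozone. It changed by -0.48 ± 0.11 with ozone in sham rats (173 ± 30.1 in air, 122 ± 11.0 in ozone, limma adjusted p = 0.00201), and under ozone it was higher by 0.46 ± 0.11 in vagotomised than in sham rats (169 ± 17.2 against 122 ± 11.0, limma adjusted p = 0.0385). In both comparisons the groups did not overlap. Of the genes tested 7.21% were lower without overlap in sham ozone than in sham air. Higher in every vagotomised ozone than in every sham ozone library were 1.18%. The call under ozone was lost without sham ozone library 1, 2, 3 or 4 or any of the 5 vagotomised ozone libraries (limma adjusted p from 0.0586 to 0.102), with only the groups compared in the fit (0.138), and without the 4 libraries low in ribosomal RNA (0.0839). Ppm1a, a phosphatase that acts on SMADs, was lower in vagotomised rats under ozone, at -0.38 ± 0.10 (limma adjusted p = 0.049), a call lost with 16 of the 22 libraries left out in turn. It was also lost with the replicate block (0.0752), equal column totals (0.141), no minimum count (0.0518), the number after S as a covariate (0.0627) or only the groups compared in the fit (0.166).

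Target genes of TGF-beta went both ways, as all genes did. In sham rats 2 of 19 rose and 3 fell, where 14.6% of all genes rose and 13.8% fell. Cdkn1a, an inhibitor of the cell cycle, rose by 2.15 ± 0.38 in sham rats (891 ± 479 in air, 3514 ± 1066 in ozone, limma adjusted p = 0.000164). Nox4, an NADPH oxidase, changed by -0.74 ± 0.20 in sham rats (limma adjusted p = 0.00862) and by -1.01 ± 0.20 in vagotomised rats (limma adjusted p = 0.000975). Tsc22d1, a gene induced by TGF-beta in other cells, changed by -0.80 ± 0.24 in sham rats (limma adjusted p = 0.0152), a call lost without sham air library 1 (0.0509) or 2 (0.0513).

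In vagotomised rats, where 11.4% of all genes rose and 9.63% fell, 2 of the 19 targets rose and 2 fell. Cdkn1a was among those that rose, by 1.23 ± 0.38 (limma adjusted p = 0.0216), which was lost without the 4 libraries low in ribosomal RNA (0.181), vagotomised air library 1 (0.0531) or vagotomised ozone library 2 (0.0665) or 3 (0.0632). Fn1, the matrix protein fibronectin, changed by -0.45 ± 0.11 (limma adjusted p = 0.00624). Of 18 genes of the BMP branch, which signals through other SMADs, 2 rose and 2 fell in sham rats and 0 passed in vagotomised rats with limma (2 at an unadjusted p under 0.05, 1 call with edgeR and 0 with DESeq2). The limma shares over all genes were 14.6% risen and 13.8% fallen in sham rats, and 21.1% called in vagotomised rats. Id1, a target of BMP, rose by 0.90 ± 0.21 in sham rats (limma adjusted p = 0.00244), while Id2, another BMP target, changed by -0.88 ± 0.21 (limma adjusted p = 0.00269). Bmp7, a BMP ligand, changed by -0.80 ± 0.25 in sham rats (limma adjusted p = 0.0211), a call lost without sham air library 4 (0.0676) or 5 (0.0666). In vagotomised rats Bmp7 was at -0.65 ± 0.25, which did not pass (limma adjusted p = 0.0737).

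**Figure D3:**
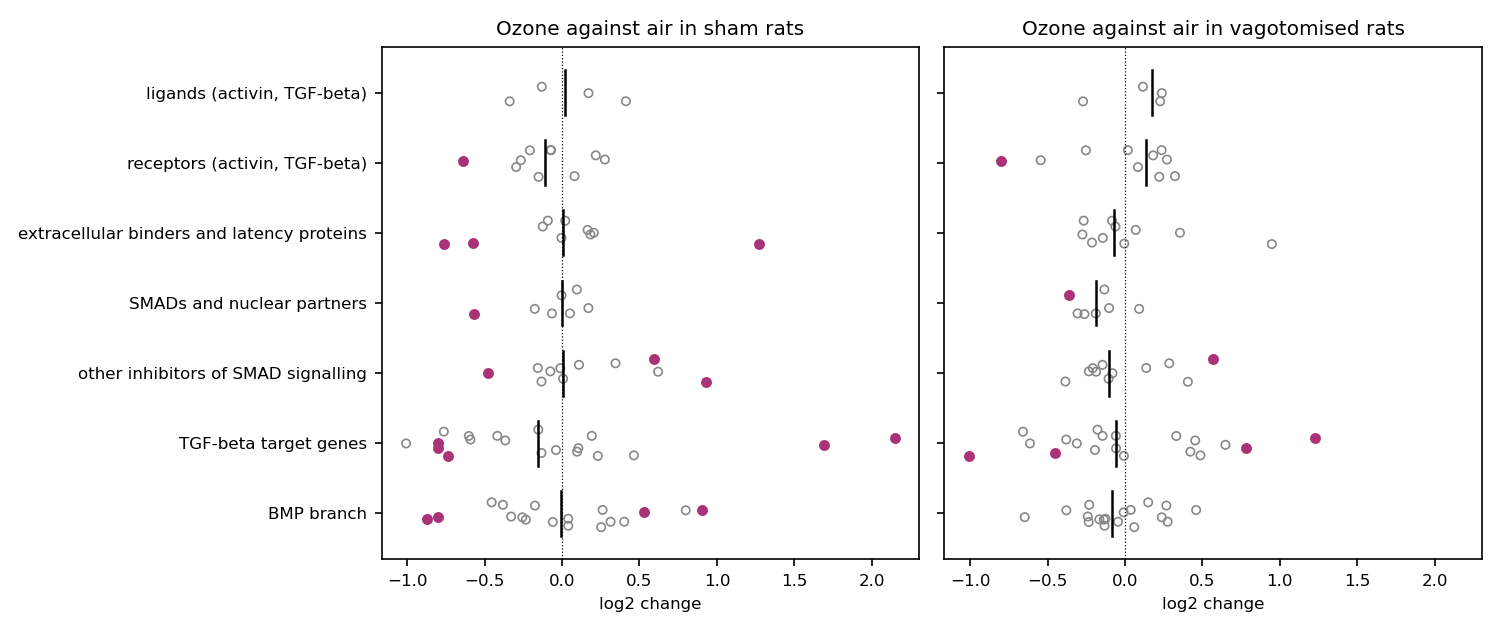
Log2 change with ozone (horizontal axis) of the tested genes in the 7 pathway lists, in sham (left) and vagotomised rats (right), with filled points for genes past the threshold, open points for the others and a bar at the median of each list. In sham rats 7 genes rose and 10 fell, and in vagotomised rats 3 rose and 4 fell, with the list medians between -0.19 and 0.17 in both.

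The genes whose levels followed each of the 2 leading members most closely were found by Pearson correlation of log2 values over the 22 libraries, among 9648 genes with a mean of at least 50, and are a description of shared patterns that include the group differences. Closest to Inhba were Pld1, a phospholipase D (r = 0.975), Plxna2, a semaphorin receptor (r = 0.962), and Creb3l2, a transcription factor of the secretory pathway (r = 0.953). Pld1 averaged 281 ± 48.8 in sham air, 258 ± 64.4 in vagotomised air, 109 ± 14.2 in sham ozone and 138 ± 25.2 in vagotomised ozone. The ozone changes of these 3 genes lay between -1.63 and -1.22 in sham and between -1.44 and -0.75 in vagotomised rats, smaller in size than those of Inhba.

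Closest to Pmepa1 were the gene listed as NEWGENE_619861 (r = 0.909), Mfsd2a, a carrier of lysophospholipids (r = 0.904), Kcmf1, a ubiquitin ligase (r = 0.883), and Grb7, an adaptor of receptor tyrosine kinases (r = 0.863). Grb7 averaged 357 ± 34.0 in sham air, 401 ± 102 in vagotomised air, 649 ± 108 in sham ozone and 417 ± 43.4 in vagotomised ozone. Mfsd2a averaged 2530 ± 845, 3520 ± 626, 7337 ± 1985 and 4586 ± 1481 in the same order. Both were highest in sham ozone, as was Pmepa1.

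**Figure D4:**
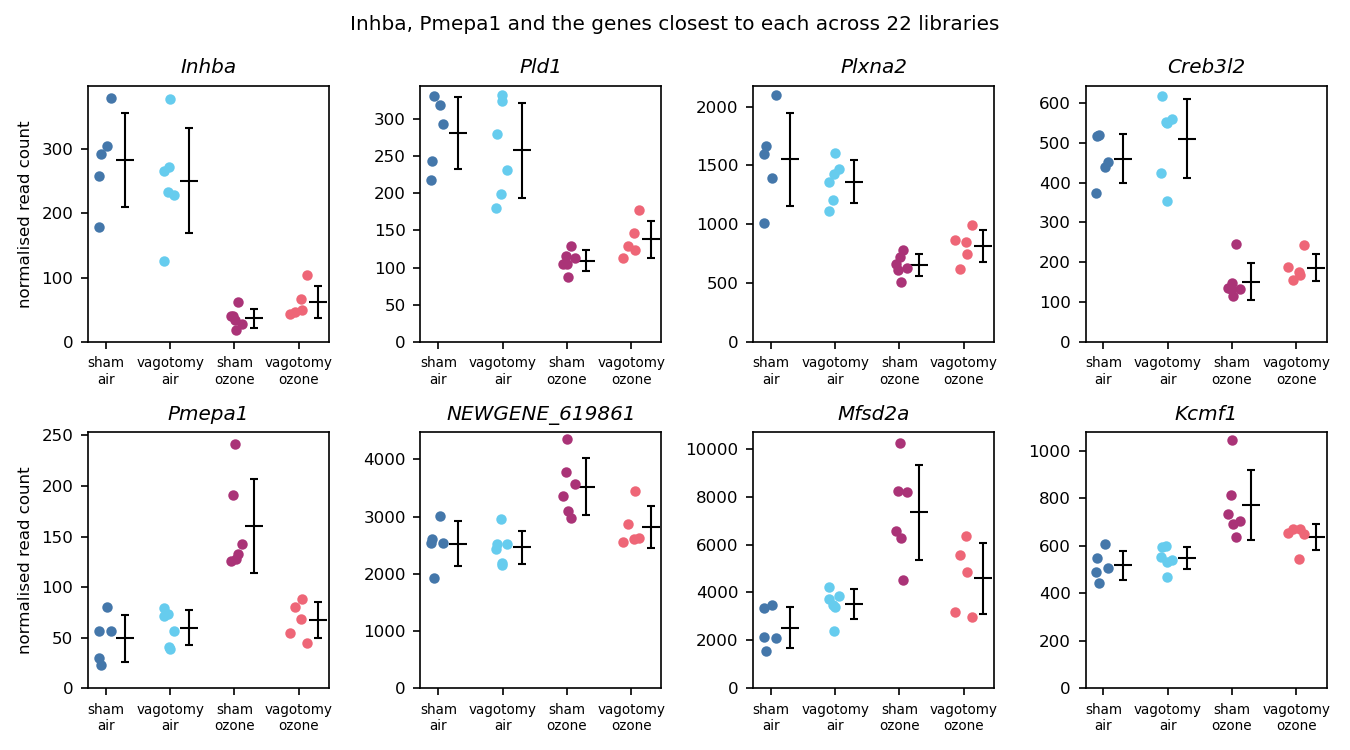
Normalised read count (vertical axis, linear, scaled per gene) of Inhba with its 3 closest genes (top) and of Pmepa1 with its 3 closest (bottom) in the 4 groups, with 1 point per library and the mean ± SD beside it. The top row is low in both ozone groups, and the bottom row has its highest mean in sham ozone.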

How the data were processed

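Liver RNA was sequenced in 22 libraries, 1 per rat, and mapped by sample description. STAR, Partek, DESeq and DESeq2 and the build rn6 are named, per the submitters' processing notes, and no versions, annotation or strand setting are given in the sources used here. The deposited signal is a read count per gene divided by 1 size factor per library. Dividing each column by its smallest unit returned whole reads (100% of values, tolerance 0.001), and 0 columns were left out. After a filter on the mean normalised count (at least 10), genes were analysed as log2(count + 1) with limma 3.58.1 in R 4.3.3, as 4 group means in 1 fit with an intensity trend, two-sided, with Benjamini-Hochberg adjustment over 12424 genes in each of 5 comparisons. Members, lists and comparisons were chosen with earlier results of these data known. Besides the members, the text draws on up to 3 called genes with the smallest p per list and comparison, and on the 4 genes most like Inhba and Pmepa1, of which 1 is not reported here. Tgfb and activin receptors and ligands that did not pass, and markers, are named beyond that rule. Alternatives included edgeR 4.0.16 and DESeq2 1.42.0 on recovered reads. Simulated data had changes in sham ozone only, 1.5-fold in 67, 2-fold in 67 and 4-fold in 66 of 12424 genes. Of these limma called 38.8%, 85.1% and 97.0%. The share of genes changed there was far below the 28.4% called in sham rats, so these rates may not hold for the data. Libraries of a group were checked for copies (lowest chi-square per degree of freedom 9.30 over 50 pairs).

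All 7 members matched the RefSeq annotation by symbol, and 6 of them have an entry among the start windows. The libraries are of separate rats, so p-values measure the spread between rats.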

Additional observations from a re-analysis of the deposited data

Results flagged for a closer look

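A single library stood away from its group in 5 cases among the members and the pathway genes named, and chance gives such a gap in about 1 of 20 groups. For the members 28 groups were examined, with 1 case, and for the pathway genes 68, with 4 cases, so the number of cases is about what chance gives. Inhbb had no read in vagotomised ozone library 4 (normalised count 0), against 0.933 or more, which is 1 read, in the other libraries of the group. Id1 was 35.9 in sham air library 5, against 26.8 or less in the others. Id2 was 1135 in sham ozone library 4, against 697 or less. Ldlrad4 was 199 in vagotomised ozone library 1, one of the libraries low in ribosomal RNA, against 165 or less. Skil was 186 in sham ozone library 3, also low in ribosomal RNA, against 265 or more.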

How the results depend on the processing

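The counts of called genes for ozone against air in sham (3526) and vagotomised rats (2619) stayed within 1.5 times under all alternatives, with 2972 to 3649 and 1854 to 2860 when single libraries were left out. For vagotomy against sham in ozone the count of 166 became 272 without the libraries low in ribosomal RNA (chosen after the data were seen), 14 with only the groups compared in the fit, 366.0 with DESeq2, and 19 to 217 without single libraries, the lowest without sham ozone library 1 (20) or 2 (19) or vagotomised ozone library 2 (25), 3 (60), 4 (76) or 5 (21). The cause was not tested. The difference of ozone changes had 16 calls by DESeq2 and 0 to 1 without single libraries (1 without sham air library 5, vagotomised air library 2 or sham ozone library 4), against 0 as reported. Near 0, some signs turned. For vagotomy against sham in air, Smad7 was 0.0055 without the libraries low in ribosomal RNA and Inhbc -0.015 to 0.17 without single libraries. The difference of ozone changes for Smad7 was -0.15 without the libraries low in ribosomal RNA, -0.031 with edgeR and -0.028 with DESeq2, and -0.12 to 0.11 without single libraries. Rescaling to equal totals shifted all genes by a median of -0.10 for ozone in sham rats, where 33.9% of calls were then rises against 51.3%, and by 0.10 for vagotomy in ozone, where 85.5% were higher against 60.2%. None of the 5 members fitted changed direction with it. Replicate numbers count rats within a group: same-numbered libraries deviated with a mean correlation of 0.01 (31 pairs), and 2 of 22 were closest to their own number. With the replicate block 3306, 2490, 0, 164 and 0 genes were called in the 5 comparisons, and Inhbe passed in sham rats (adjusted p = 0.0442). Single counts such as those of Inhbb and Fst are limited by depth.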
